A study of Mus musculus with 5 samples.

Results

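The transcripts described here are those of 10 cytokine genes, Tnf, Il1a, Il1b, Il1rn, Il6, Il10, Il12b, Il18, Osm and Il9, taken by symbol from the 24419 rows of the gene table. All 10 symbols had a row. The cells were bone marrow-derived macrophages (BMMs) of C57BL/6 mice, grown from marrow with M-CSF at 50 ng/ml for 5 days and then activated overnight with LPS at 100 ng/ml. Both groups received LPS. The PBS group (n = 2) was then cultured with PBS and the Sema3G group (n = 3) with recombinant Semaphorin 3G at 100 ng/ml, for 18 h. The recombinant protein carried an Fc tag and was made in transfected human cells, and the control was PBS. No library without LPS was analysed here, so the response to LPS itself was not measured. The labels do not say whether the 5 samples came from separate mice or cultures, and the p-values then measure only the spread between these samples, which may be technical.

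LPS, a component of the outer membrane of Gram-negative bacteria, binds TLR4 on macrophages and activates NF-κB and MAP kinases through the adaptor MyD88. Macrophages answer with TNF, IL-1, IL-6 and IL-12, and with brakes on the same response, the IL-1 receptor antagonist and IL-10. Many of these transcripts are short-lived, and their levels fall again after prolonged exposure to LPS. IL-1β and IL-18 are made as inactive precursors and cut by caspase-1 in the inflammasome, so their transcript levels say nothing about the secreted proteins. IL-9 is known mainly as a product of T helper cells, innate lymphoid cells and mast cells.

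Each library was made from the 3′ ends of poly(A) RNA with unique molecular identifiers (UMIs), which count a molecule once. Since each molecule gives one 3′ tag whatever its length, CPM (the UMIs of a gene relative to all UMIs of its library, on a common scale) was compared between genes without a correction for length. Library totals ran from 1798469 to 2215855 UMIs. A count of 0 allows up to 3 UMIs, between 1.35 and 1.67 CPM in the 5 libraries, and intervals and limits from counts cover counting error only. Macrophage markers were present, with summed counts of 15934 to 22879 UMIs over 8 genes, although Mertk had 0 to 5 UMIs per library. Rn45s, the ribosomal RNA precursor, took 1.01% to 3.19% of the UMIs in the PBS libraries and 6.31% to 7.88% in the Sema3G libraries, and the UMIs on listed genes 75.6% to 77.6% and 65.9% to 71.3%. Both shares move the CPM of every gene. Differences were therefore also computed after TMM scaling, and on a listed-gene scale, the CPM recomputed over the UMIs of listed genes without Rn45s.

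Il1b, the gene of IL-1β, dominated the group. It had 2641 and 4660 UMIs with PBS and 1997, 4695 and 4108 UMIs with Sema3G, and took 93.4% to 97.3% of all UMIs of the 10 genes in each library. Its mean over the 5 libraries was 1814 CPM, rank 25 among the rows with any UMI, and 57.4 times the mean of the next gene. Il1rn followed at 31.6 CPM, then Il18 at 21.3 CPM, Tnf at 11.3 CPM, Osm at 4.18 CPM, Il9 at 2.12 CPM and Il1a at 1.96 CPM. Il1rn was above Il18 in 5 of 5 libraries, but their ranges over libraries overlapped. Il18 was above Tnf, and Tnf above Osm, in 5 of 5 libraries with no overlap of ranges. The ranges of Osm, Il9 and Il1a overlapped, and the order of these genes did not exceed their spread. Il10 at 0.551 CPM and Il6 at 0.220 CPM lay below the 3-UMI level, and Il12b had 0 UMIs in every library.

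**Figure D1:**
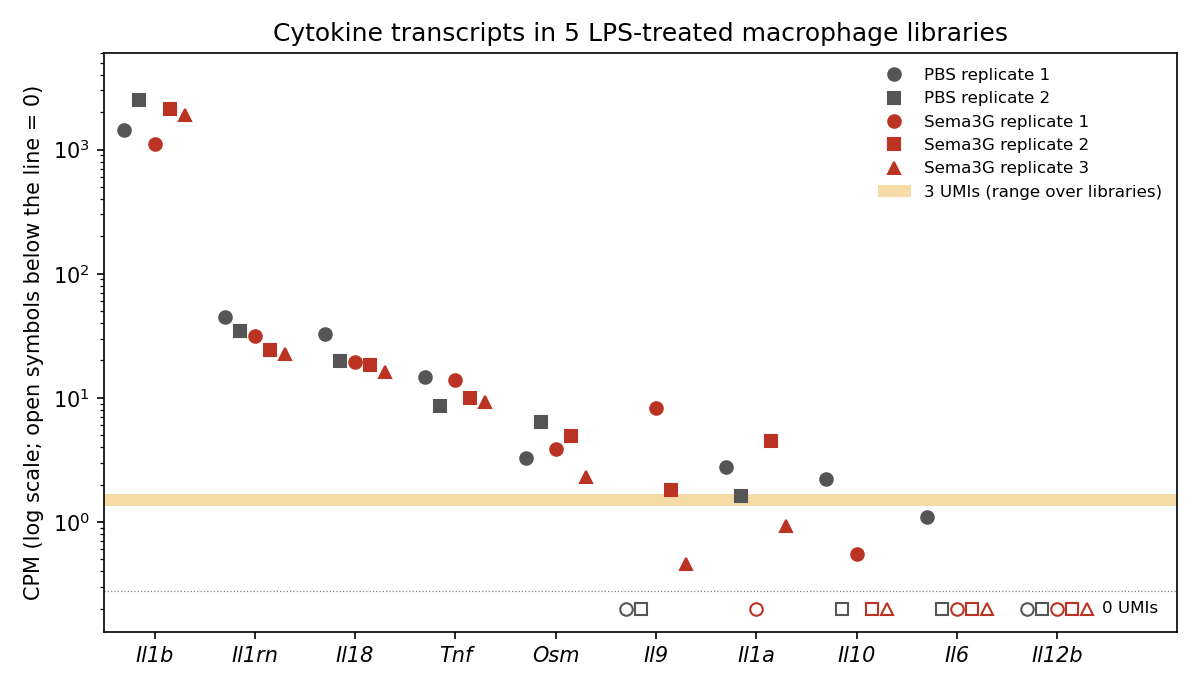
CPM of the 10 cytokine genes (log axis) in each of the 5 libraries, with grey symbols for PBS and red symbols for Sema3G, open symbols for 0 UMIs and a band for the CPM of 3 UMIs. Il1b lies between 1110 and 2495 CPM in every library, far above the other genes, while Il10 and Il6 lie at or near the band or at 0 and Il12b is at 0 in all 5.

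A sequence feature that the choice of genes did not use was compared with the rest of the genome. AU-rich elements, repeats of the pentamer ATTTA in the 3′ UTR, are a known signal for rapid decay of cytokine transcripts. In 1 GENCODE M21 transcript per gene (mm10), 9 of the 10 genes held ATTTA in the 3′ UTR, against 62.5% of 20980 coding genes, counting overlapping matches on the transcript strand only. The median density was 8.31 per kb in the 10 genes and 1.16 per kb in all coding genes. Tnf (chr17:35199381-35202007, minus strand) had 8 pentamers in 764 bases of 3′ UTR and 5 copies of the longer TTATTTATT, which 7.11% of coding genes hold. Tnf alone among the 10 genes held this longer repeat. Il1b (chr2:129364570-129371139, minus strand) had 4 in 459 bases, Il12b (chr11:44400063-44414033, plus strand) had 6 in 797 bases, and Il9 (chr13:56479277-56482246, minus strand) had 3 in only 86 bases, a density of 34.9 per kb. Il1rn (chr2:24336853-24351494, plus strand) had 0 in 1864 bases. The windows below, of 30 bases each, are those richest in ATTTA, with the pentamers in capitals, and are shown for the most abundant gene, for Tnf, for the gene with 0 UMIs and for the gene seen in the Sema3G libraries alone.
Tnf 3′ UTR, bases 439 to 468: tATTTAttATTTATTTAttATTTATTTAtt
Il1b 3′ UTR, bases 197 to 226: acttacctATTTATTTAtgtATTTAttgat
Il12b 3′ UTR, bases 237 to 266: ATTTAagtaATTTAtgtATTTAttaATTTA
Il9 3′ UTR, bases 8 to 37: tgctATTTAttctATTTAttgaATTTAcaa
The most abundant gene and a gene with 0 UMIs thus both carried clustered pentamers, and the decay of these transcripts was not measured.

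RefSeq promoters (GRCm38.p6, from 250 bases before to 50 after the start) were found for 8 of the 10 genes. A TATAAA or TATATA on the gene's strand in the 50 bases before the start was present for Il1a, Il1b, Il12b and Tnf, and in 3.67% of 32851 promoters. The NF-κB consensus, searched on both strands, had 1 match, in Il6, and 5.80% of all promoters held one. A match is a description of letters and not a measured site. The promoters of Il1b and Il6 are shown as those of an abundant gene and of a gene near the limit of detection, with the TATAAA of Il1b and the NF-κB match of Il6 in capitals.
Il1b promoter, chr2:129371090-129371389, minus strand: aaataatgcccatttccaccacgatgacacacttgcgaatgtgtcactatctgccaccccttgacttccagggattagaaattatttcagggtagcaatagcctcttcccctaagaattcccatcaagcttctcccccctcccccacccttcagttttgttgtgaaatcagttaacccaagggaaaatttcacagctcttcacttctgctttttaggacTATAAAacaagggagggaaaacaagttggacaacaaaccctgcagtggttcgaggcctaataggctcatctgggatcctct
Il6 promoter, chr5:30012864-30013163, plus strand: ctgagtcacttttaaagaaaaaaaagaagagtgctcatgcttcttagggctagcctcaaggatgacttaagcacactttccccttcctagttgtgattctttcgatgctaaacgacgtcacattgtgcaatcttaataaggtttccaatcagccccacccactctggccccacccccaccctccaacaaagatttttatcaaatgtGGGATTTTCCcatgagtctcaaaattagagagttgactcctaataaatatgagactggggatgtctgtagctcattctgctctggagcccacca

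None of the 7 cytokine genes that could be tested passed the threshold between Sema3G and PBS. The test was limma on log2(CPM + 1) over 10088 genes whose mean reached 1 CPM, with a Benjamini-Hochberg adjusted p below 0.05 as the threshold and log2 fold changes given as Sema3G minus PBS. On this scale the change of low genes is understated. Over all genes tested, 1.59% were called higher and 0.218% lower. By the unadjusted p (under 0.05), 1 of the 7 genes was higher (Il9) and 1 lower (Il1rn), where 6.83% and 14.2% of all genes tested were. On the recovered counts, edgeR's quasi-likelihood test covered 4 of the 10 genes, without Il9, Il1a and Osm, and DESeq2 gave an unadjusted p for 9. DESeq2 gave no adjusted p for Il1a, and a gene without one could not be called. Both called 0, with 0 and 1 genes at an unadjusted p under 0.05. Fewer expressing cells and less RNA per cell cannot be told apart in bulk RNA. Il6, Il10 and Il12b were below the filter. The median log2 fold change was -0.30 over the 7 genes and -0.22 over all 10088. It was -0.038 over all genes after TMM scaling and 0.042 on the listed-gene scale, so that the median gene was shifted downward on CPM as deposited. With TMM scaling the calls over all genes split into 322 higher and 3 lower, and on the listed-gene scale into 493 higher and 2 lower, against 160 higher and 22 lower on CPM as deposited. The split turned with 1 library, to 270 higher and 440 lower without Sema3G replicate 1. The part of Rn45s and of the unlisted UMIs in these differences was not tested.

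**Figure D2:**
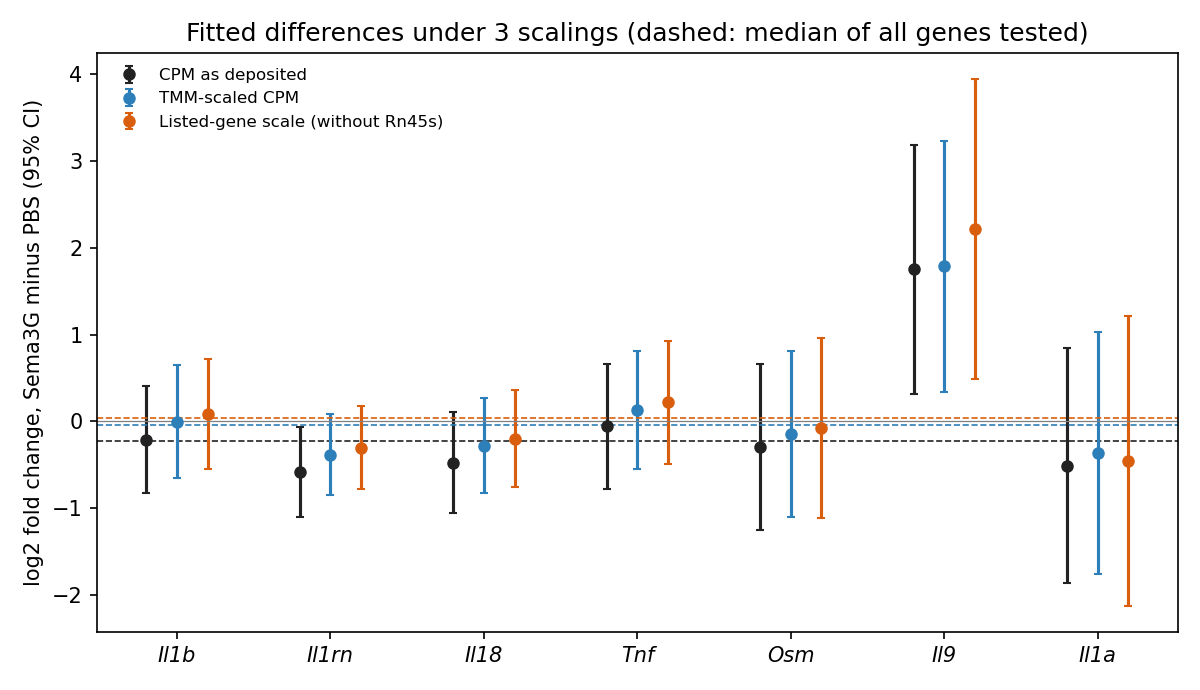
Fitted log2 fold changes, Sema3G minus PBS, of the 7 genes tested, with 95% confidence intervals from limma, on CPM as deposited (black), TMM-scaled CPM (blue) and the listed-gene scale (orange). Dashed lines are the medians over all genes tested, at -0.22, -0.038 and 0.042, and for all genes but Il9 and, on CPM as deposited, Il1rn the intervals include 0.

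Il1b did not differ between the groups beyond its spread. It measured 1451 and 2495 CPM with PBS and 1110, 2119 and 1894 CPM with Sema3G, so that the groups overlapped, with the lowest library in the Sema3G group and the highest in the PBS group. The means were 1973 ± 738 CPM (SD, n = 2) and 1708 ± 529 CPM (SD, n = 3), with a log2 fold change of -0.21 (95% confidence interval -0.83 to 0.41, limma adjusted p = 0.702). The libraries within a group differed by more than counting error. PBS replicate 2 was 1.72 times PBS replicate 1 (95% exact interval 1.64 to 1.80), and Sema3G replicate 1 was 0.524 times Sema3G replicate 2 (0.497 to 0.552). The sign of the difference was not stable. It was 0.082 on the listed-gene scale, 0.18 without PBS replicate 2 and 0.074 without Sema3G replicate 1, and it was -0.60 without PBS replicate 1. An antisense gene, Il1bos, overlaps Il1b on the other strand, and the sources used here do not say whether strand was used in counting.

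The libraries low in Il1b, PBS replicate 1 and Sema3G replicate 1, were also the lowest in CPM for 5 of the 10 genes of a list of LPS-responsive genes, Nos2, Ptgs2, Acod1, Lcn2 and Nfkbia. Of all genes tested 6.08% had this order. Ptgs2 had only 0 to 6 UMIs per library, and for Nfkbia PBS replicate 1, at 875 CPM, lay close to Sema3G replicate 2, at 882 CPM. Nos2, the inducible nitric oxide synthase, had 17 and 29 UMIs with PBS and 10, 63 and 44 UMIs with Sema3G. Acod1 (listed as Irg1), which makes itaconate, had 304 and 396 UMIs with PBS and 273, 502 and 453 UMIs with Sema3G. Lcn2, an iron-scavenging lipocalin, had 227 and 659 UMIs with PBS and 213, 467 and 322 UMIs with Sema3G. The other 5 genes, Saa3, Cxcl10, Ccl5, Cd40 and Nfkbiz, did not have this order. Ccl5, a chemokine, and Cd40 ran the other way, highest in CPM in these libraries. Ccl5 had 947 and 392 UMIs with PBS and 685, 549 and 302 UMIs with Sema3G. Cd40 had 22 and 12 UMIs with PBS and 19, 12 and 7 UMIs with Sema3G. All 10 genes of the list had at least 1 UMI, 9 were tested and 0 passed, with 0 also at an unadjusted p under 0.05 by limma. The part of these genes or libraries in the spread of Il1b was not tested.

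Il1a, the gene of IL-1α, was scarce. It had 5 and 3 UMIs with PBS and 0, 10 and 2 UMIs with Sema3G, that is 2.75 and 1.61 CPM against 0, 4.51 and 0.922 CPM. Sema3G held both the highest and the lowest library. The log2 fold change was -0.51 (95% confidence interval -1.86 to 0.84, limma adjusted p = 0.666), and 0.059 without Sema3G replicate 1. It was -1.50 with a pseudocount of 0.1 and -0.13 with a pseudocount of 5. Per 1000 Il1b UMIs, Il1a gave 2.08 and 0.751 UMIs with PBS and 0.250, 2.24 and 0.608 UMIs with Sema3G, with 0.5 counts added to each side. The log2 of this ratio differed by -0.84 between the groups (exact two-sided permutation test p = 0.6, adjusted p = 0.6 over the 2 ratios tested). It was -0.10 without PBS replicate 1 or without Sema3G replicate 1, -1.58 without PBS replicate 2 and -1.68 without Sema3G replicate 2. With 2 libraries against 3 no such p can fall below 0.2. Gm14023 overlaps Il1a on the other strand.

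Il1rn, which encodes the antagonist that blocks the IL-1 receptor, was lower in every Sema3G library than in both PBS libraries. It had 81 and 65 UMIs with PBS and 57, 54 and 49 UMIs with Sema3G, that is 44.5 and 34.8 CPM against 31.7, 24.4 and 22.6 CPM. The means were 39.7 ± 6.86 CPM (SD, n = 2) and 26.2 ± 4.83 CPM (SD, n = 3), and the log2 fold change was -0.58 (95% confidence interval -1.10 to -0.069), with a limma unadjusted p of 0.0283 and adjusted p of 0.189. Of all genes tested, 26.5% had every Sema3G library below both PBS libraries, so the order by itself did not set Il1rn apart. After TMM scaling the groups still did not overlap, with 39.0 and 33.5 against 30.9, 26.4 and 25.3. On the listed-gene scale they overlapped, with 58.1 and 48.1 against 48.7, 40.8 and 38.9, and the log2 fold change was -0.30 (limma adjusted p = 0.583). On that scale 10.5% of genes had every Sema3G library lower. The estimate was negative under all 14 alternatives run for this gene, from -0.76 to -0.30, and was past the threshold in none of them.

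The antagonist was rare beside its agonists in all libraries. Per 1000 UMIs of Il1a plus Il1b there were 30.8 and 14.0 UMIs of Il1rn with PBS and 28.8, 11.6 and 12.0 with Sema3G. The ratio was high in both libraries with low Il1b and low in the other 3, and it overlapped between the groups. The log2 ratio differed by -0.39 (exact two-sided permutation test p = 0.4, adjusted p = 0.6 over the 2 ratios), with SDs of 0.801 (n = 2) and 0.743 (n = 3). Without PBS replicate 1 the difference was 0.18, with the opposite sign. The ratio of Il10 to Il12b could not be formed, since Il12b had 0 UMIs in every library and Il10 had UMIs in 2 libraries alone.

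Il18, a cytokine of the IL-1 family that drives interferon-γ production in lymphocytes, was also lower in the Sema3G libraries on CPM as deposited. It had 59 and 37 UMIs with PBS and 35, 41 and 35 UMIs with Sema3G, or 32.4 and 19.8 CPM against 19.5, 18.5 and 16.1 CPM. The groups did not overlap, an order that 26.5% of all genes tested had. PBS replicate 2 lay 0.346 CPM above the highest Sema3G library, and PBS replicate 1 stood apart from the other 4. The log2 fold change was -0.47 (95% confidence interval -1.06 to 0.11, limma adjusted p = 0.330). It was -0.13 without PBS replicate 1. The groups overlapped after TMM scaling and on the listed-gene scale, where the log2 fold changes were -0.28 and -0.20. Bco2 and Tex12 overlap Il18 on the other strand.

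Tnf, the gene of the main early inflammatory cytokine of macrophages, was low and did not differ. It had 27 and 16 UMIs with PBS and 25, 22 and 20 UMIs with Sema3G, that is 14.8 and 8.57 CPM against 13.9, 9.93 and 9.22 CPM. Both PBS libraries lay outside the range of the Sema3G libraries, one above and one below. The means were 11.7 ± 4.43 CPM (SD, n = 2) and 11.0 ± 2.52 CPM (SD, n = 3), with a log2 fold change of -0.055 (95% confidence interval -0.77 to 0.66, limma adjusted p = 0.947). The spread between the PBS libraries was within counting error, at a ratio of 0.577 (95% exact interval 0.291 to 1.11). PBS replicate 1 and Sema3G replicate 1, the lowest libraries in Il1b, had the highest Tnf CPM. The sign turned with the scaling, to 0.13 with TMM and 0.22 on the listed-gene scale. It also turned with single libraries, to 0.31 without PBS replicate 1, 0.0039 without Sema3G replicate 2 and 0.052 without Sema3G replicate 3.

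Osm encodes oncostatin M, a cytokine of the IL-6 family made by activated macrophages. It had 6 and 12 UMIs with PBS and 7, 11 and 5 UMIs with Sema3G, that is 3.30 and 6.42 CPM against 3.89, 4.96 and 2.30 CPM. The groups overlapped, and the log2 fold change of -0.30 had a 95% confidence interval from -1.26 to 0.66 (limma adjusted p = 0.726). It was 0.094 without PBS replicate 2.

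Il6, Il10 and Il12b were too scarce for the limma fit, and a difference was not detectable at this depth. Il6, the gene of a cytokine that drives the acute phase response, had 2 UMIs in PBS replicate 1 and 0 in the other 4 libraries. Il10, the gene of a cytokine that restrains macrophages, had 4 UMIs in PBS replicate 1, 1 UMI in Sema3G replicate 1 and 0 in the other 3. Summed over the groups, its ratio of Sema3G to PBS was 0.149 with a 95% exact interval from 0.00303 to 1.51, which includes 1. Il12b, the gene of the p40 subunit that IL-12 and IL-23 share, had 0 UMIs in all 5 libraries, which allows up to 1.35 to 1.67 CPM. For these 3 genes the counts show neither a difference nor its absence.

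Il9 was seen in the Sema3G libraries alone, at few UMIs. It had 0 and 0 UMIs with PBS and 15, 4 and 1 UMIs with Sema3G, or 8.34, 1.81 and 0.461 CPM. The 3 libraries of the group differed, with Sema3G replicate 1 at 4.62 times Sema3G replicate 2 (95% exact interval 1.47 to 19.1). Against 3 counts over the PBS group, the 20 summed UMIs of the Sema3G group, taken as exact, gave a 3.98-fold higher level. This value leaves out the spread between libraries, and it dropped to 1.40-fold when Sema3G replicate 1 was left out. The 95% exact interval of the ratio of the summed counts started at 2.94. Il9 reached the filter through the Sema3G group alone, mostly through Sema3G replicate 1, so a difference was built into its being tested. The limma unadjusted p was 0.0193 and the adjusted p 0.163, and 11.9% of all genes tested had every Sema3G library above both PBS libraries. Il9r, which encodes the IL-9 receptor chain, had 2 UMIs in PBS replicate 2 and 0 elsewhere.

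Markers of the cells known for Il9 were looked up in the same libraries. Of 10 T and innate lymphoid cell markers 7 had UMIs, with sums of 69 and 69 UMIs with PBS and 102, 125 and 96 UMIs with Sema3G, mostly from Il7r. Cd4 had 18 and 7 UMIs with PBS and 11, 9 and 5 UMIs with Sema3G, and the median log2 fold change of the 3 markers tested was -0.30. Il7r had 26.3 ± 0.867 CPM (SD, n = 2) and 44.4 ± 4.51 CPM (SD, n = 3) in the PBS and Sema3G groups (log2 fold change 0.73, limma adjusted p = 0.0954), and passed the threshold after TMM scaling (limma adjusted p = 0.0244), on the listed-gene scale (0.0102) and by edgeR's quasi-likelihood test (adjusted p = 0.0246). Without Il7r and Cd4 the sums were 2 and 14 UMIs with PBS and 16, 6 and 0 UMIs with Sema3G. Cd3e, Cd3g and Cd8a were at 0 in every library. The others were compared between PBS replicate 2 and Sema3G replicate 1, the library with most Il9. Cd3d had 1 and 5 UMIs, Cd2 6 and 5, Lck 3 and 4, Thy1 4 and 1, and Gata3 0 and 1. PBS replicate 2, with 14 UMIs of these markers, had 0 UMIs of Il9. Of 10 mast cell and basophil markers 8 were at 0, among them Kit, Fcer1a and Ms4a2, and the list summed to 0 to 3 UMIs per library. The other T helper cytokines Il2, Il3, Il4, Il5, Il13, Il17a, Il17f, Il22 and Ifng were at 0 in all 5 libraries, and Il21 had 1 UMI. The part of other cells in the Il9 counts was not tested.

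Receptors, processing enzymes and signalling proteins around these cytokines were looked up in 8 lists, which held 99 genes with a row, of which 27 were at 0 in all libraries and 52 were tested. Of these, 0 passed as higher and 1 as lower, while 4 were higher and 10 lower by the limma p before adjustment (under 0.05), a limit that 6.83% and 14.2% of all genes passed. The median log2 fold change over the 52 genes was -0.26, beside -0.22 over all genes tested.

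Irak2, a kinase-like protein downstream of the IL-1 and Toll-like receptors, was the gene called. It had 167 and 156 UMIs with PBS and 71, 122 and 106 UMIs with Sema3G, and fell from 87.6 ± 5.83 CPM (SD, n = 2) to 47.8 ± 7.84 CPM (SD, n = 3), a log2 fold change of -0.87 (95% confidence interval -1.31 to -0.43, limma adjusted p = 0.0418). The groups did not overlap, and 26.5% of all genes tested had every Sema3G library below both PBS libraries. The call did not hold after TMM scaling (-0.67, limma adjusted p = 0.105), on the listed-gene scale (-0.59, limma adjusted p = 0.144) or by edgeR's quasi-likelihood test (adjusted p = 0.0929). It was lost without either PBS library (limma adjusted p = 0.142 and 0.0620) and without Sema3G replicate 2 or 3 (0.129 and 0.163), and held without Sema3G replicate 1 (0.0382). The log2 fold change ran from -0.98 to -0.74 over these 5 fits, each with 1 library fewer.

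The rest of the IL-1 list did not pass. It comprised 18 genes for receptors, adaptors, kinases and inflammasome parts, of which 13 were tested, with a median log2 fold change of -0.066. Irak3, an inhibitory relative of Irak2 in the same pathway, was the most abundant at 267 ± 7.20 CPM (SD, n = 2) and 255 ± 5.62 CPM (SD, n = 3). Myd88, the shared adaptor, had 127 ± 0.349 CPM (SD, n = 2) and 86.0 ± 11.5 CPM (SD, n = 3), with a log2 fold change of -0.57 (limma adjusted p = 0.122), and without Sema3G replicate 1 it passed the threshold (limma adjusted p = 0.0391). Irak1, the kinase recruited by Myd88, had 81.6 ± 6.55 and 67.4 ± 1.79 CPM. Of the ligands of the IL-1 family outside the 10 genes, Il33, Il36a, Il36b and Il1f10 were at 0 in all libraries and Il36g had 2 UMIs in each of Sema3G replicates 1 and 2.

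All 13 genes of the TNF list were tested and 0 passed, with 3 lower at an unadjusted limma p under 0.05 (14.2% over all genes) and a median log2 fold change of -0.25. The receptor Tnfrsf1b had 857 ± 64.8 CPM (SD, n = 2) and 714 ± 49.3 CPM (SD, n = 3) in the PBS and Sema3G groups, against 11.7 and 11.0 CPM of its ligand. Adam17, the protease that sheds TNF, had 383 ± 8.94 and 341 ± 38.6 CPM, and the signalling adaptor Tab2 158 ± 23.2 and 151 ± 18.2 CPM. Traf2, an adaptor of the TNF receptors, gave a log2 fold change of -1.27 (limma adjusted p = 0.0868), and passed the threshold without Sema3G replicate 1 (limma adjusted p = 0.0407). Its value is given because its call changed with 1 library.

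Of the 14 genes of the IL-6 family list 9 were tested and 0 passed on CPM as deposited. The most abundant were Socs3, a feedback inhibitor of cytokine receptors, at 363 ± 86.8 and 309 ± 48.7 CPM, Jak1, a receptor-bound kinase, at 371 ± 12.8 and 288 ± 44.0 CPM, and Stat3, the transcription factor it activates, at 363 ± 8.29 and 280 ± 38.0 CPM. Il6ra, the IL-6 receptor chain, had 129 and 151 UMIs with PBS and 218, 250 and 258 UMIs with Sema3G. Its groups did not overlap, at 75.9 ± 7.04 CPM (SD, n = 2) and 118 ± 4.34 CPM (SD, n = 3). Of all genes tested, 11.9% had every Sema3G library above both PBS libraries. Il6ra had a log2 fold change of 0.63 with a limma adjusted p of 0.0890. It passed after TMM scaling (0.83, limma adjusted p = 0.0163), on the listed-gene scale (0.92, limma adjusted p = 0.00572), by edgeR's quasi-likelihood test (adjusted p = 0.0215) and by DESeq2 (adjusted p = 0.0158). The receptor was thus measured at 75.9 and 118 CPM while its ligand was near 0.

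The remaining lists were thin. Of 7 genes of the IL-10 family list 3 were tested and 0 passed, and the receptor chains Il10ra (93.6 ± 3.64 and 59.0 ± 11.9 CPM) and Il10rb (124 ± 0.787 and 99.7 ± 21.5 CPM) and the kinase Tyk2 (32.6 ± 12.1 and 22.4 ± 1.74 CPM) had adjusted limma p-values from 0.105 to 0.344. Of 8 genes of the IL-12 family list 3 were tested. Ebi3, a subunit of IL-27, had 105 ± 22.3 and 70.2 ± 12.2 CPM (log2 fold change -0.57, limma adjusted p = 0.144), Il12a, the p35 subunit of IL-12, had 0.810 ± 0.369 and 1.86 ± 1.16 CPM, and Il12rb2 was at 0. Il23r, a receptor chain for IL-23, had 0 and 4 UMIs with PBS and 11, 9 and 9 UMIs with Sema3G, a log2 fold change of 1.69 (limma adjusted p = 0.107), which was 0.86 without PBS replicate 1 (limma adjusted p = 0.467) and 2.51 without PBS replicate 2 (limma adjusted p = 0.0262), where the PBS group is 1 library at 0. Of 12 genes of the IL-9 and T helper list only Il2rg, the common γ chain of cytokine receptors, reached the filter, at 218 ± 64.6 and 162 ± 32.9 CPM (limma adjusted p = 0.282). Of 23 other cytokine ligands 10 were tested and 0 passed, and the most abundant, Mif, Il16 and Tnfsf12, had log2 fold changes of -0.60, -0.78 and -0.60 (limma adjusted p = 0.114, 0.117 and 0.241). Without Sema3G replicate 1, Mif and Il16 passed the threshold (limma adjusted p = 0.0430 and 0.0248), as did Myd88, Traf2 and Irak2. The 5 are among 52 pathway genes tested, and in that fit the calls over all 10088 genes rose from 182 to 710.

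**Figure D3:**
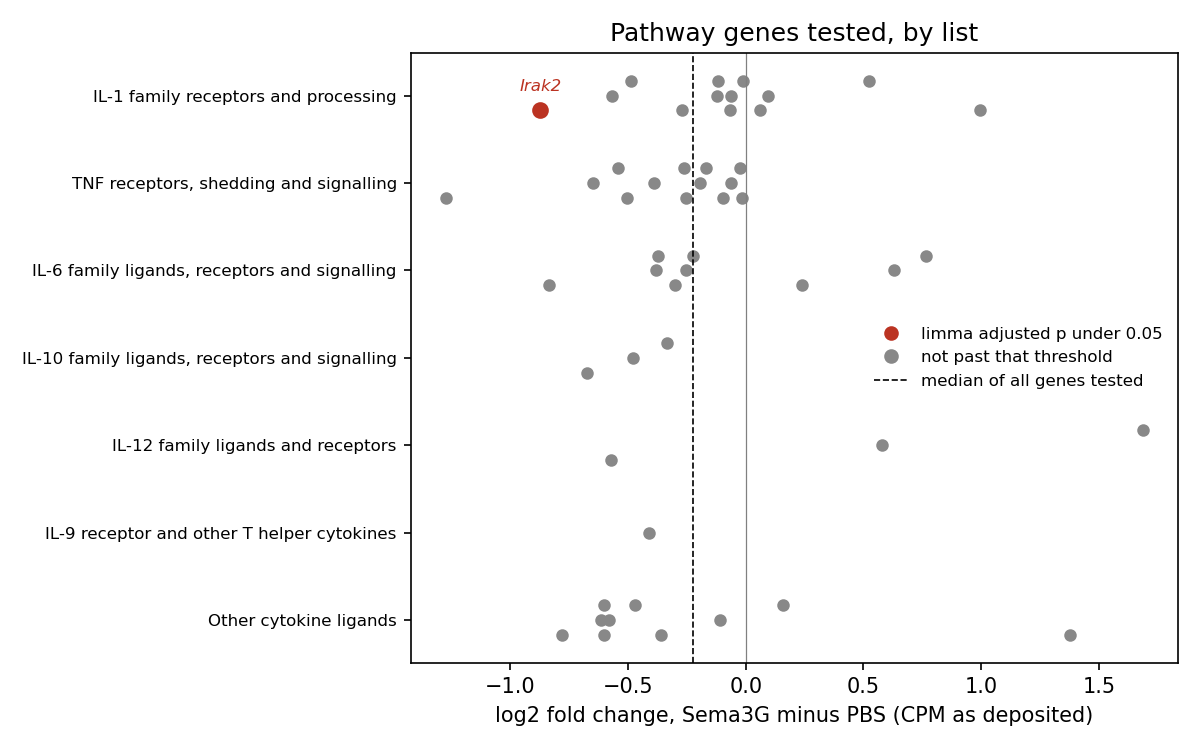
Fitted log2 fold changes, Sema3G minus PBS, on CPM as deposited, of the 52 pathway genes tested, by list, with a dashed line at the median of all genes tested, -0.22. Irak2, at -0.87, is the gene past the limma adjusted p of 0.05 (red), and the other genes (grey) lie on both sides of the median.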

How the data were processed

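RNA of 5 samples of LPS-stimulated BMMs was used, 2 with PBS and 3 with Sema3G. The authors prepared QuantSeq 3′ libraries with UMIs and aligned the reads to mm10. UMIs were counted in Strand NGS, and EdgeR (3.12 per the labels) served for normalization and testing. The sources used here give neither the gene annotation nor the strand setting of the counting. The deposited values are CPM, and all values were within 0.01 of whole multiples of 1 UMI, which returned the counts (100% of values). The deposited p-values, q-values and ranking hold the authors' own comparison and were not used.

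All 5 libraries entered 1 limma fit (3.58.1, R 4.3.3) on log2(CPM + 1) with a trend of the variance on the mean. Genes whose mean reached 1 CPM were kept, and p was adjusted over all of them by Benjamini-Hochberg. edgeR (4.0.16) and DESeq2 (1.42.0) on the recovered counts were alternatives. Scripts were tested on simulated data. Ratios were compared by exact permutation tests (scipy 1.17.1). Other alternatives changed the pseudocount, filter, scaling and replicate block, and left out each library. Named are the 10 genes, the pathway genes past the threshold, the 3 most abundant of each pathway list and marker genes at 0. The other genes named were chosen after their values were seen. The cytokine genes and lists were chosen with earlier results of these data known. Marker lists of other cells were looked up too, and per library summed to 186 to 316 UMIs for neutrophils (of which S100a8 gave 183 to 309, with Elane and Ngp at 0), 0 to 4 for dendritic cells, 0 to 5 for B cells and 20 to 51 for stromal cells. Gene models came from GENCODE M21 and promoters from RefSeq.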

Additional observations from a re-analysis of the deposited data

How the results depend on the processing

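Among the limits is depth: 3 UMIs equal 1.35 to 1.67 CPM, so a fall or a small rise of Il6, Il10 and Il12b could not be seen. No value was given for the ratio of Il10 to Il12b. Il1rn and Il18 kept their direction under the 14 alternatives run for each, while the sign of Il9 could not turn, with 0 UMIs in both PBS libraries. The calls among those of the 10 genes that each setting tested stayed at 0 in all but the replicate block. Il12b was never tested, and Il9 was not tested by edgeR or with a minimum mean of 5 CPM. Where a PBS library is left out, the lone one is assumed to vary like the Sema3G group. The cause of the changes below was not tested.

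The replicate numbers are not shown to pair the samples. Only 2 numbers are shared, the labels tie them to no batch, and the deviations across genes of PBS replicate 1 correlated with those of Sema3G replicate 1 at 0.173 and of Sema3G replicate 2 at -0.111. With the replicate block, in which Sema3G replicate 3 has no partner and adds nothing to the difference and 1 residual degree of freedom is left, 1 of the 10 genes was called, Il9 (log2 fold change 2.36, limma adjusted p = 0.0174, against a range of 0.0174 to 0.375 over its alternatives), with 4 pathway genes (Irak2, Il6ra, Il23r and Mif) and 573 genes in all. The block gave -0.19 for the log2 ratio of Il1rn to Il1a plus Il1b, -0.74 for Il1a over Il1b and 0.052 for Tnf.

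Over all genes, the 182 calls became 108 with no filter, 325 with TMM scaling, 495 on the listed-gene scale and 334 by edgeR, and ranged from 27 to 710 when 1 library was left out, with the lowest count when Sema3G replicate 2 was missing and the highest when Sema3G replicate 1 was. The replicate block split them into 298 higher and 275 lower. Calls of pathway genes fell from 1 to 0 with a pseudocount of 0.1 and with no filter and ranged from 0 to 5 when 1 library was left out, and the gene called under both rescalings, edgeR and DESeq2 was Il6ra and not Irak2. Log2 fold changes with the opposite sign were 0.13 (TMM), 0.22 (listed-gene scale), 0.12 (edgeR) and 0.13 (DESeq2) for Tnf, 0.024 (DESeq2) for Il1a, and 0.082 (listed-gene scale) and 0.0013 (DESeq2) for Il1b. With 1 library left out the ranges were -0.42 to 0.31 for Tnf, -1.17 to 0.059 for Il1a, -0.60 to 0.18 for Il1b, -0.70 to 0.094 for Osm, -0.95 to 0.18 for the log2 ratio of Il1rn to Il1a plus Il1b, and -1.68 to -0.10 for Il1a over Il1b.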
